A study of Rattus norvegicus with 47 samples.

Results

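Each rat in the study gave up to 2 tissue punches, 1 of the striatum and 1 of the cerebellum, and the results here compare the difference between those regions within an animal. For each animal number with a library of counts in both regions, the cerebellar log2 CPM (counts scaled by TMM-adjusted library size) of a gene was subtracted from the striatal value, and the resulting region difference was compared between PCB52 and sham animals. A positive region difference means more of the transcript in striatum, and a positive PCB52 minus sham value means that this difference was shifted toward striatum in exposed animals. The rule found 21 animals, which hold 42 of the 44 libraries with counts and of the 47 labelled samples.

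The animals were Sprague-Dawley rats of both sexes that arrived at 28 days of age and were assigned to treatment at 39 days (males) or 42 days (females). PCB52 is a polychlorinated biphenyl, a persistent and semi-volatile industrial pollutant. Exposure was by nose-only inhalation, in daily sessions of 4 h for 28 days, and the controls are the animals that the labels call sham. Paired libraries came from 4 sham males (animals 1, 3, 9 and 11), 6 sham females (2, 4, 6, 8, 10 and 12), 5 PCB52 males (13, 15, 19, 21 and 23) and 6 PCB52 females (14, 16, 18, 20, 22 and 24). Total counts per library ran from 5684508 to 8914523 in striatum and from 6524400 to 15865054 in cerebellum.

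The striatum is a forebrain nucleus built mostly of inhibitory projection neurons that receive glutamate from cortex and dopamine from the midbrain. The cerebellum is built mostly of small excitatory granule cells, with Purkinje cells as the output neurons of its cortex. A difference taken within an animal removes whatever raises or lowers a transcript equally in both regions of that animal, such as a systemic hormone level or an inherited variant, and keeps what acts on 1 region or 1 punch. In bulk tissue, fewer cells of a type and less RNA per cell cannot be told apart.

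Region markers followed the labels in every library. Drd1, the D1 dopamine receptor of striatal projection neurons, ran from 196 to 470 CPM in striatum and from 0.405 to 9.11 CPM in cerebellum. Gabra6, a GABA-A receptor subunit of granule cells, ran from 827 to 1207 CPM in cerebellum and reached at most 1.98 CPM in 20 striatal libraries. The striatal library of PCB52 female 22 was the exception, with 68.1 CPM of Gabra6 and 31.1 CPM of Pcp2, a Purkinje cell transcript that stood at most at 11.7 CPM in the other striatal libraries.

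Several libraries stood apart in ways that touch the region difference. Xist, which silences an X chromosome, and the Y-linked Eif2s3y were both above 3 CPM in 1 library each of 5 sham animals: the striatum of male 3 and the cerebellum of females 8 and 10 and males 9 and 11. RT1-CE16, a class I histocompatibility gene, was at 0 in the striatum of sham female 6 and at 11.9 CPM in its cerebellum. Among marker lists, choroid plexus transcripts were high in the cerebellum of sham male 1 (list mean 5.80 log2 CPM) and in the striatum of PCB52 female 20 (8.08), olfactory bulb transcripts in the striatum of sham female 12 (5.81), and cortical excitatory neuron transcripts in the striatum of PCB52 female 14 (4.93) and PCB52 male 19 (4.57). Finally, the mean of 41 cytosolic ribosomal protein genes was 9.41 to 10.02 log2 CPM in the cerebellum of PCB52 animals 15, 16, 20 and 23, against 7.76 to 8.89 in the other 17 cerebellar libraries. Their total counts, 6766637 to 8670850, lay within the range of the rest, and Pcp2 reached 755 to 1044 CPM in them against 265 to 607 CPM in the other cerebellar libraries. For values that turned on some of these animals, the results below also give the value without them.

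No gene passed the test of the region difference between PCB52 and sham animals. edgeR's quasi-likelihood test with the animal as a block called 0 of 12435 genes (0%) at a Benjamini-Hochberg adjusted p of 0.05, with a smallest adjusted p of 0.311. At an unadjusted p of 0.05 it held 1839 genes (14.8%), of which 903 (7.26%) had a larger and 936 (7.53%) a smaller region difference in PCB52 animals. DESeq2 (smallest adjusted p = 0.0588, for Dym) and limma on the per-animal differences (smallest adjusted p = 0.306) also called 0 genes, with 2210 and 1876 at an unadjusted p of 0.05. There was no gene among the 12435 (0%) for which the PCB52 animals all stood above or all stood below the sham animals. The fitted values of single genes below therefore describe genes of lowest p, none of which passed. Each value for both sexes has the same edgeR adjusted p of 0.311. The edgeR adjusted p is 0.53 for the genes named for males and 0.737 for those named for females.

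The number of genes at an unadjusted p of 0.05 depended on single animals. Without PCB52 animals 15, 16, 20 and 23, the 4 with high cerebellar ribosomal protein transcripts, the count was 302. Without single animals it ranged from 836, without PCB52 male 23, to 4148, without PCB52 male 13. It was also moved by more than 1.5 times without sham male 1 (1002), PCB52 male 15 (968), PCB52 female 16 (1022) or PCB52 female 20 (1027). A principal component analysis of the region differences placed the same 4 animals at 1 end: the first component held 41.0% of the variance, and their scores of 56.5 to 85.6 lay beyond those of the other 17 animals, which ran from -45.6 to 15.01.

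Dym (gene 291433), which encodes a Golgi-associated protein needed for skeletal development, had the lowest p. In striatum it ran from 55.5 to 77.6 CPM in sham animals (median 61.3) and from 46.2 to 65.0 in PCB52 animals (median 54.8). In cerebellum it ran from 42.3 to 71.9 (median 54.9) and from 46.7 to 71.3 (median 65.5). All 10 sham animals had more Dym in striatum than in cerebellum on the CPM scale, with region differences of 0.00 to 0.40, while 9 of 11 PCB52 animals lay below that range. The mean region difference was 0.20 ± 0.14 (SD, n = 10) in sham and -0.20 ± 0.17 (SD, n = 11) in PCB52 animals, a fitted log2 value of -0.40 ± 0.09 (SE). Striatum contributed -0.22 and cerebellum 0.18 to it.

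Runx2 (gene 367218), a transcription factor best known for bone formation, had a value of the other sign. Sham animals held 1.03 to 2.93 CPM in striatum (median 1.48) and 1.89 to 3.41 CPM in cerebellum (median 2.73). PCB52 animals held 1.16 to 4.74 CPM (median 2.45) and 1.27 to 3.41 CPM (median 1.96). The region difference was -0.64 ± 0.48 (SD, n = 10) in sham and 0.28 ± 0.46 (SD, n = 11) in PCB52 animals, a fitted log2 value of 1.08 ± 0.26 (SE), and 8 of 11 PCB52 animals lay above the sham range. These are low counts, and the 2 ranges of the region difference overlapped between -0.57 and 0.30.

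P4ha2 (gene 360526), a subunit of the enzyme that hydroxylates proline in collagen, was the gene of lowest p among those shifted toward striatum. Its region difference ran from 0.53 to 1.60 in sham animals (median 0.94) and from 1.05 to 1.95 in PCB52 animals (median 1.47), and all 11 PCB52 animals lay above the sham median. Striatal levels were 24.1 ± 4.30 CPM (SD, n = 10) in sham and 28.9 ± 5.85 CPM (SD, n = 11) in PCB52 animals, and cerebellar levels were 12.3 ± 2.94 and 10.2 ± 2.27 CPM. The fitted log2 value was 0.58 ± 0.13 (SE).

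**Figure D1:**
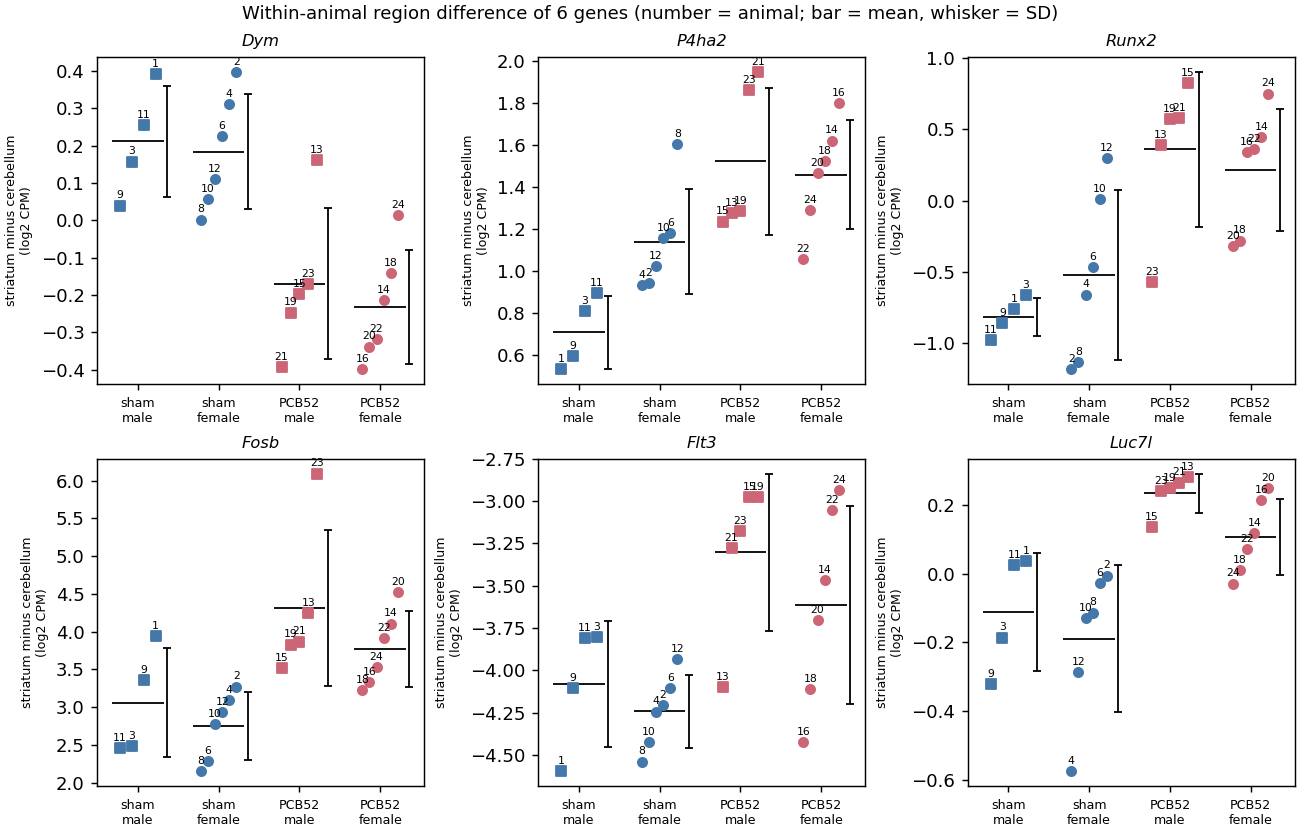
Striatum minus cerebellum difference in log2 CPM for 6 genes in each of the 21 animals, by treatment and sex; squares are males, circles females, numbers are animals, the bar is the group mean and the whisker its SD. Dym lay below the sham range in 9 of 11 PCB52 animals and Luc7l above it in 9 of 11, while no gene separated the groups completely.

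The activity-induced genes Fosb and Nr4a3 had values above 1 on the log2 scale, which came from lower levels in PCB52 cerebellum. The PCB52 minus sham value of Fosb was -1.23 in cerebellum and -0.09 in striatum. For Nr4a3 it was -1.31 and -0.23. Fosb (gene 100360880), a subunit of the AP-1 transcription factor that neurons induce on stimulation, held 10.4 to 22.7 CPM in the striatum of sham animals (median 15.5) and 9.24 to 20.9 CPM in that of PCB52 animals (median 14.2). In cerebellum it held 0.426 to 3.58 CPM in sham (median 1.87) and 0 to 1.84 CPM in PCB52 animals (median 0.69). The striatal ranges coincided, and the cerebellar values of PCB52 animals reached from below the sham range to about its middle. The region difference was 2.87 ± 0.56 (SD, n = 10) in sham and 4.02 ± 0.79 (SD, n = 11) in PCB52 animals, and the fitted log2 value was 1.39 ± 0.34 (SE). That value depended on the sham animals with mixed libraries: without the 5 that held transcripts of both sexes it was 0.63, and without sham female 6 as well it was 0.50, each with 1 sham male left. The lone male was taken to vary like the other groups.

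Nr4a3, an orphan nuclear receptor gene of the same response, held 7.09 ± 3.16 CPM (SD, n = 10) in sham and 3.14 ± 2.34 CPM (SD, n = 11) in PCB52 cerebellum, against 9.77 ± 5.15 and 7.65 ± 2.90 CPM in striatum. Its fitted log2 value was 1.11 ± 0.33 (SE), which was 0.74 without PCB52 animals 15, 16, 20 and 23, and 7 of 11 PCB52 animals lay above the sham range of the region difference. Per1, a clock gene that glucocorticoids also induce, had a fitted value of 0.48 ± 0.19 (SE), and 0.10 without those 4 animals. The 4 cerebellar libraries with high ribosomal protein transcripts held the lowest Per1 of all 21, with 37.4, 39.6, 37.6 and 26.2 CPM in animals 15, 16, 20 and 23, against 52.7 to 85.1 CPM in the rest. Over the whole immediate early list, 12 of 20 tested genes had a value above 0 (50.4% of all genes did), 5 higher and 1 lower at an unadjusted p of 0.05 (7.26% and 7.53% of all genes), and the median was 0.11. That median was -0.05 without the 5 animals with transcripts of both sexes and -0.08 without sham female 6 as well, and it was 0.05 without PCB52 animals 15, 16, 20 and 23.

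**Figure D2:**
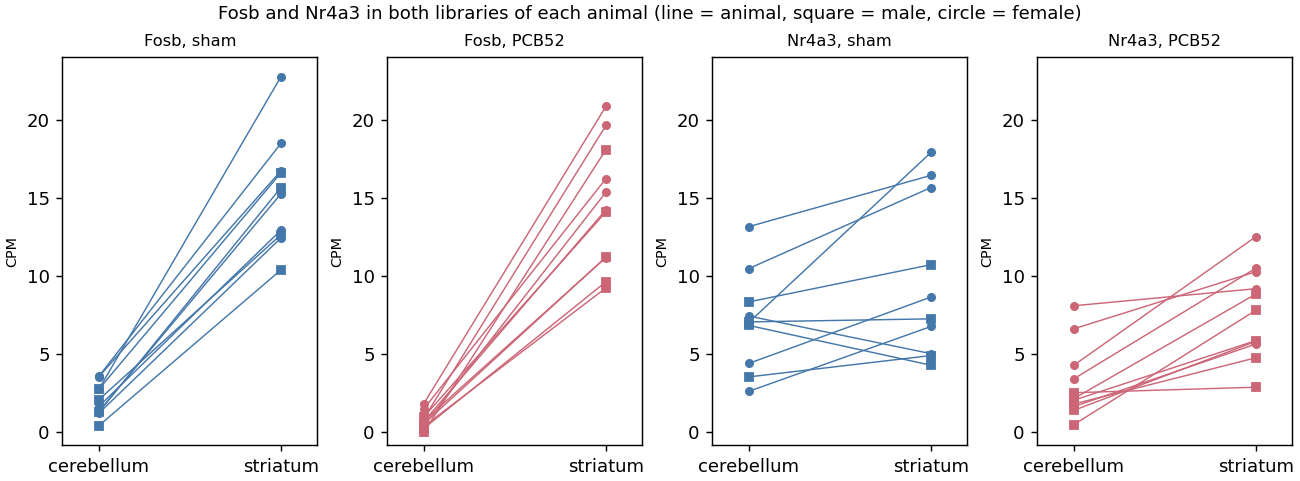
Fosb and Nr4a3 in CPM in the cerebellar and striatal library of each animal, joined by a line, for the 10 sham and 11 PCB52 animals. Striatal Fosb spans about the same range in both groups, while cerebellar Fosb reaches 3.58 CPM in sham and 1.84 CPM in PCB52 animals.

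Other genes shifted toward striatum differed in which region carried the shift. Flt3, a receptor tyrosine kinase, stood at 3.03 ± 0.537 CPM (SD, n = 10) in sham and 5.33 ± 1.99 CPM (SD, n = 11) in PCB52 striatum, and at 59.2 ± 8.66 and 58.9 ± 10.6 CPM in cerebellum, so its log2 value of 0.79 ± 0.20 (SE) came from striatum. Kirrel2, an adhesion molecule of the nephrin family, stood at 1.07 ± 0.383 CPM in sham and 0.526 ± 0.188 CPM in PCB52 cerebellum, with a fitted value of 1.38 ± 0.34 (SE). Its PCB52 minus sham log2 value was 0.34 within striatum and -0.71 within cerebellum. In 10 of 11 PCB52 animals its region difference lay above the sham range, and in the remaining animal it lay below it. Luc7l, a splicing factor gene, had a region difference of -0.16 ± 0.19 (SD, n = 10) in sham and 0.17 ± 0.11 (SD, n = 11) in PCB52 animals, a fitted value of 0.32 ± 0.09 (SE).

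The remaining genes chosen on this side were Optn, an autophagy receptor (0.42 ± 0.11), Elavl2, a neuronal RNA-binding protein (0.80 ± 0.20), Gpc4, a glypican (0.65 ± 0.18), Tgfbr1, a receptor for TGF-beta (0.71 ± 0.19), Acacb, an acetyl-CoA carboxylase (1.05 ± 0.29), and Ccdc187 (2.93 ± 0.82), all as log2 ± SE. Ccdc187 was close to absent from cerebellum, at 0 to 0.426 CPM in sham and 0 to 0.138 CPM in PCB52 animals, and its fitted size depends on how low counts are handled: limma gave 1.09. Tgfbr1 and Acacb owed part of their values to the 4 animals with high cerebellar ribosomal protein transcripts and stood at 0.40 and 0.58 without them.

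On the other side stood the genes of lowest p whose region difference was smaller in PCB52 animals. Ndufa4l2, a mitochondrial protein induced by low oxygen, stood at 14.4 ± 2.66 CPM (SD, n = 10) in sham and 12.7 ± 2.99 CPM (SD, n = 11) in PCB52 striatum, and at 4.80 ± 1.12 and 7.41 ± 2.35 CPM in cerebellum. Its fitted log2 value was -0.80 ± 0.20 (SE). Tmem54, a membrane protein gene far higher in striatum (82.6 to 227 CPM) than in cerebellum (4.40 to 21.99 CPM), had a value of -0.86 ± 0.22 (SE), of which -0.22 came from striatum and the rest from 8.76 ± 2.71 CPM in sham and 13.4 ± 4.49 CPM in PCB52 cerebellum. Tmem141, another membrane protein gene, had a value of -0.65 ± 0.15 (SE) with near-equal parts from both regions (-0.32 in striatum and 0.33 in cerebellum).

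Rpp14, a subunit of the ribonuclease that trims transfer RNA, had a region difference of -0.23 ± 0.11 (SD, n = 10) in sham and -0.64 ± 0.31 (SD, n = 11) in PCB52 animals. In 10 of 11 PCB52 animals it lay below the sham range, and in 1 it lay above it. Its fitted log2 value of -0.41 ± 0.11 (SE) was -0.23 without PCB52 animals 15, 16, 20 and 23. The same held for Atpsckmt, which methylates a subunit of ATP synthase (-0.43 ± 0.11, and -0.27 without those animals or without the sham animals with transcripts of both sexes), Nudt18, a nucleotide hydrolase (-0.71 ± 0.19 and -0.35), and Tyw5, a transfer RNA modifying enzyme (-0.51 ± 0.14 and -0.33). Exo5, a DNA exonuclease (-0.68 ± 0.19), Gins3, a subunit of the replicative helicase (-0.48 ± 0.14), Gtpbp6, a GTP-binding protein of mitochondria (-0.55 ± 0.15), and Hspb6, a small heat shock protein (-0.44 ± 0.13), kept values within 1.5 times of these under the alternatives tried.

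Each of 31 gene lists was described by its counts and median, and no member of any list passed the test. All 41 tested cytosolic ribosomal protein genes had a value below 0, 12 of them at an unadjusted p of 0.05, against 7.53% of all genes, with a median log2 of -0.55 against 0.00 for all genes. The median PCB52 minus sham value was -0.15 within striatum and 0.41 within cerebellum. Of the 40 genes of oxidative phosphorylation, the nuclear-encoded subunits of the respiratory chain, 39 had a value below 0, 12 at an unadjusted p of 0.05, with a median of -0.43. Rplp1, a protein of the ribosomal stalk, had a value of -0.66 ± 0.29 (SE), and Ndufs3, a subunit of respiratory complex I, one of -0.47 ± 0.20 (SE, edgeR adjusted p = 0.311 for both). Without the 4 animals with high cerebellar ribosomal protein transcripts each of these 2 genes stood at -0.11.

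Those list values turned on 4 animals. The ribosomal protein list had a region difference of -1.12 in PCB52 male 15, -1.80 in male 23, and -1.36 and -1.56 in females 16 and 20, while the other 7 PCB52 animals ran from -0.49 to 0.48 and the 10 sham animals from -0.54 to 0.54. Apart from the 4 animals, the ranges of the treatments overlapped almost throughout. Oxidative phosphorylation gave the same picture, with -1.09 to -1.70 in the 4 animals, -0.61 to 0.15 in the other PCB52 animals and -0.59 to 0.11 in sham animals. Without the 4 animals the list median was -0.02 for ribosomal proteins and 0.00 for oxidative phosphorylation. The 4 were picked by a cerebellar mean of the ribosomal protein list above 9.2 log2 CPM, so their removal lifts the ribosomal median by design. All 4 were PCB52 animals, so an effect of exposure and a trait of these libraries cannot be told apart. Without the 6 sham animals whose libraries disagree (3, 6, 8, 9, 10 and 11) the 2 medians were -0.87 and -0.65.

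**Figure D3:**
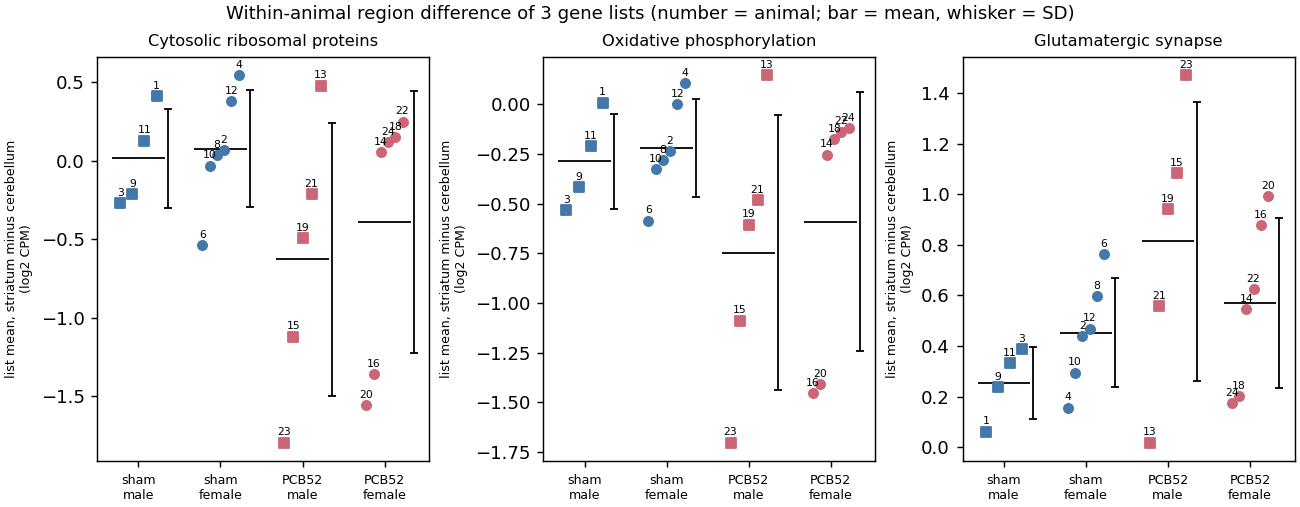
Region difference of the mean log2 CPM of 3 gene lists in each animal, by treatment and sex; numbers are animals, the bar is the group mean and the whisker its SD. PCB52 animals 15, 16, 20 and 23 lie below -1.0 for ribosomal proteins and oxidative phosphorylation, and every other animal lies above -0.7.

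Synaptic gene lists had values on the other side of 0. Of 40 glutamatergic synapse genes, 36 had a value above 0 (50.4% of all genes), 8 at an unadjusted p of 0.05 (7.26% of all genes), with a median of 0.31, and of 23 GABAergic synapse genes 19 had a value above 0, with a median of 0.25. Shank1, a scaffold of the excitatory postsynaptic density, had a region difference of -0.68 ± 0.37 (SD, n = 10) in sham and 0.37 ± 1.08 (SD, n = 11) in PCB52 animals, a fitted value of 1.09 ± 0.35 (SE), which was 0.46 without the 4 animals. In Slc1a2, an astrocytic glutamate transporter, the 4 animals again stood apart: their cerebellum held 7.26 to 17.4 CPM, and only sham female 6, at 16.97 CPM, fell within that range among the other animals. Without the 4 animals the medians were 0.02 for the glutamatergic and -0.04 for the GABAergic list. The glutamatergic median was 0.50 without the 6 sham animals whose libraries disagree, and the GABAergic median was 0.12 without the 5 animals with neighbouring tissue transcripts (1, 12, 14, 19 and 20). The NRF2 antioxidant list, genes of the response to oxidants, had 5 of 24 genes above 0 and a median of -0.29. That median was 0.02 without the 4 animals, -0.18 without the 5 with neighbouring tissue transcripts and -0.47 without the 6 sham animals whose libraries disagree.

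The xenobiotic metabolism, thyroid hormone and calcium store lists, tied to known actions of polychlorinated biphenyls, had medians between -0.03 and 0.17. The dopamine list, at the end of this paragraph, lay outside that range. Over all genes, 50.4% had a value above 0, and 7.26% were higher and 7.53% lower at an unadjusted p of 0.05. Of 20 tested xenobiotic metabolism genes 9 had a value above 0 (median -0.03), of 19 thyroid hormone-responsive genes 11 (median 0.13), and of 19 calcium store genes, the channels and binding proteins of internal calcium stores, 15 (median 0.17), 3 higher and 2 lower at an unadjusted p of 0.05. The last 2 medians were 0.03 and -0.05 without PCB52 animals 15, 16, 20 and 23. The thyroid median was 0.015 without the 5 animals with neighbouring tissue transcripts, and the xenobiotic median ran from -0.09 to 0.03 over the sets of animals left out. Among the members, Abcb1a, a drug efflux pump of brain vessels, stood at 0.67 ± 0.27, Dio2, which activates thyroid hormone, at 0.47 ± 0.18, and Casq1, a calcium-binding protein of the stores, at 0.68 ± 0.27, while Fkbp1b, which binds the calcium release channel, stood at -0.66 ± 0.26 (log2 ± SE, edgeR adjusted p = 0.311 for each). Without PCB52 animals 15, 16, 20 and 23 these values were 0.18, 0.25, 0.39 and -0.21. The dopamine and DARPP-32 signalling list had 7 of 24 genes above 0, with a median of -0.14 and 4 lower at an unadjusted p of 0.05, and the median was -0.22 without the animals with transcripts of both sexes and -0.28 without the 6 sham animals whose libraries disagree. Drd2, the D2 dopamine receptor, held 428 ± 50.1 CPM (SD, n = 10) in sham and 390 ± 95.2 CPM (SD, n = 11) in PCB52 striatum, and 2.62 ± 0.47 and 3.54 ± 2.26 CPM in cerebellum. Its fitted value was -0.47 ± 0.22 (SE), of which striatum contributed -0.17 and cerebellum 0.28, and the highest cerebellar value was 10.2 CPM, in PCB52 female 16.

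Single punches stood apart in some cell type marker lists. The choroid plexus list had a median of 1.26, with all 8 tested genes above 0, and its region difference was 6.73 in PCB52 female 20 and at most 0.76 in every other animal. Its median was 0.20 without the 5 animals with neighbouring tissue transcripts, 0.57 without PCB52 animals 15, 16, 20 and 23, 2.83 without the 6 sham animals whose libraries disagree and 3.01 without the 5 with transcripts of both sexes. The granule cell list had 11 of 12 genes above 0 and a median of 0.55, with striatal list means of 5.88 in PCB52 female 22 and 1.95 to 3.60 elsewhere. With each animal left out in turn, female 22 included, the granule cell median ran from 0.41 to 0.65. The choroid plexus median ran from 0.64 to 1.87 in the same way. The oligodendrocyte precursor list, the proliferating ancestors of myelinating cells, had 10 of 10 genes above 0 and a median of 0.35, which was 0.16 without PCB52 animals 15, 16, 20 and 23 and 0.22 without the animals with transcripts of both sexes. Its leading gene Pdgfra, the growth factor receptor that marks these cells, held 26.1 ± 4.79 CPM (SD, n = 10) in sham and 18.5 ± 4.65 CPM (SD, n = 11) in PCB52 cerebellum and had a fitted value of 0.69 ± 0.20 (SE, edgeR adjusted p = 0.311), which was 0.45 without the same 4 animals.

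Within each sex no gene passed either. In males edgeR called 0 of 12435 genes (0%), with a smallest adjusted p of 0.53 and 675 genes (5.43%) at an unadjusted p of 0.05. In females it called 0 (0%), with a smallest adjusted p of 0.737 and 681 genes (5.48%). The female minus male difference gave 0 calls (0%), with every adjusted p at 1 and 226 genes (1.82%) at an unadjusted p of 0.05. The region differences of PCB52 and sham animals did not overlap in 153 genes (1.23%) in males, with 4 sham and 5 PCB52 animals, and in 28 genes (0.225%) in females, with 6 of each.

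Some lists had different counts in the 2 sexes. The dopamine and DARPP-32 signalling list had 15 of 24 genes above 0 in males (49.7% of all genes) with a median of 0.12, and 4 of 24 in females (49.2% of all genes) with a median of -0.39. In sham male 3, whose striatal library held transcripts of both sexes, the region difference of this list was 4.21, below the next sham male at 4.68. In females 5 of its genes were lower at an unadjusted p of 0.05 (2.65% of all genes), and in the female minus male difference 1 was (0.981%), with 4 of 24 above 0 (50% of all genes). The glutamatergic synapse list had 38 of 40 genes above 0 in males, 6 of them higher at an unadjusted p of 0.05 (3.08% of all genes), and 25 of 40 in females. Sham males 3, 9 and 11 had a library with transcripts of both sexes, and PCB52 males 15 and 23 high cerebellar ribosomal protein transcripts. PCB52 male 19 had cortical transcripts in striatum, and the cortical excitatory neuron list had a median of 1.33 in males and -0.22 in females. List counts within a sex were not recomputed without these animals. The granule cell list had 4 of 12 genes higher in females at an unadjusted p of 0.05 (2.83% of all genes), where the striatum of female 22 held granule cell transcripts. The difference between the sexes passed in no gene of these lists.

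Grin2b, an NMDA receptor subunit, was among the genes of lowest p in males. Its cerebellar level was 1.48 ± 0.486 CPM (SD, n = 4) in sham and 0.562 ± 0.148 CPM (SD, n = 5) in PCB52 males, beside striatal levels of 18.4 ± 3.60 and 20.1 ± 2.24 CPM. The region difference ran from 3.15 to 3.74 in sham and from 4.44 to 4.80 in PCB52 males, without overlap, and the fitted value was 1.47 ± 0.42 (SE, edgeR adjusted p = 0.53). The female minus male difference of -1.59 ± 0.53 did not pass (edgeR adjusted p = 1). On the other side in males stood Cyb5r2, a cytochrome b5 reductase (-1.42 ± 0.38), Rem1, a small GTPase (-1.27 ± 0.39), and Vstm4 (-1.10 ± 0.30). Without the sham animals with transcripts of both sexes, which leaves 1 sham male, Cyb5r2 stood at -2.17 and Rem1 at -2.004. Vstm4 had a striatal level of 5.17 ± 0.35 CPM (SD, n = 4) in sham and 3.05 ± 0.661 CPM (SD, n = 5) in PCB52 males.

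In females Prkd2, a protein kinase D, had a region difference of 0.68 to 1.40 in sham and 1.62 to 2.32 in PCB52 animals, without overlap. Its striatal level was 14.7 ± 2.81 CPM (SD, n = 6) in sham and 20.4 ± 1.13 CPM (SD, n = 6) in PCB52 females, and the fitted value was 0.77 ± 0.18 (SE, edgeR adjusted p = 0.737). Dnmt3b, a DNA methyltransferase, had a value of 1.33 ± 0.32, and Ppp1r2, an inhibitor of protein phosphatase 1, one of -0.44 ± 0.11, with 395 ± 31.8 CPM in sham and 307 ± 24.95 CPM in PCB52 striatum (SD, n = 6 each). Htr6, a serotonin receptor of striatal neurons, had a fitted value of -2.92 ± 0.67 that turned on traces in cerebellum, 0 to 0.267 CPM in sham and 0.204 to 1.30 CPM in PCB52 females, beside 18.8 to 36.6 CPM in striatum, and limma gave -1.43. Rgs14, a regulator of G protein signalling, had a fitted value of -4.01 (limma -1.999), with a cerebellar median of 0.07 CPM in sham and 1.25 CPM in PCB52 females and a highest value of 7.23 CPM. For genes this low the fitted size depends on how the fit treats counts near 0.

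The pairing itself removed little spread. Over 11394 genes the median correlation between the regions, after centring on the group means, was 0.063, with quartiles of -0.082 and 0.20, and 223 genes (1.96%) exceeded 0.5. The median SD of the region difference within groups was 0.397, against 0.413 had the regions been independent. Cerebellum contributed more, with a median SD of 0.316 against 0.242 in striatum. Own pairs correlated across genes from -0.47 in PCB52 male 13 to 0.56 in sham male 1, and a striatal library was most like the cerebellar library of its own animal in 2 of 21 cases. With 200 genes chosen for tracking in the other animals it was so in 6 of 21. The region differences rest on the animal numbers in the titles, and whether every pair of punches came from 1 animal stays in doubt. A correlation over all genes cannot settle it, since 2 punches of 1 animal can differ in tissue and library. Single genes given below had like levels in most pairs, but not in animals 6 (RT1-CE16), 11 (Ephx2) and 23 (Ddx24).

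Some gene groups did track between the regions of an animal. Their correlations were taken after centring each list mean on its treatment and sex group. The glucocorticoid-induced list, genes switched on by corticosterone through its receptor, correlated between regions with Pearson's r of 0.78 and Spearman's rho of 0.71 over 21 animals, and r was 0.69 without the 2 animals farthest from the median. PCB52 female 22 had the lowest list mean in both regions (4.63 log2 CPM in striatum and 4.08 in cerebellum), and sham females 4 and 12 had the highest in both. The list mean thus ran from 4.63 to 5.70 in striatum, but its region difference ran only from 0.29 to 0.64 in PCB52 animals and from 0.07 to 0.63 in sham animals. As many list members lay above as below 0 in the PCB52 comparison (9 and 9 of 18, with 50.4% of all genes above 0). At an unadjusted p of 0.05, 4 were higher and 2 lower (7.26% and 7.53% of all genes), and the list median was -0.05. That median was -0.18 without the animals with transcripts of both sexes, -0.24 without the 6 sham animals whose libraries disagree and 0.07 without PCB52 animals 15, 16, 20 and 23. With all animals, the median PCB52 minus sham values within regions were -0.23 in striatum and -0.13 in cerebellum.

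The interferon response list, antiviral genes switched on by interferons, had an r of 0.61 and a rho of 0.73 between regions, and the heat shock list an r of 0.62 and a rho of 0.56. Ribosomal proteins and oxidative phosphorylation had an r of 0.05 and 0.08. These correlations, also of group-centred list means, describe 21 animals whose members share library and depth.

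**Figure D4:**
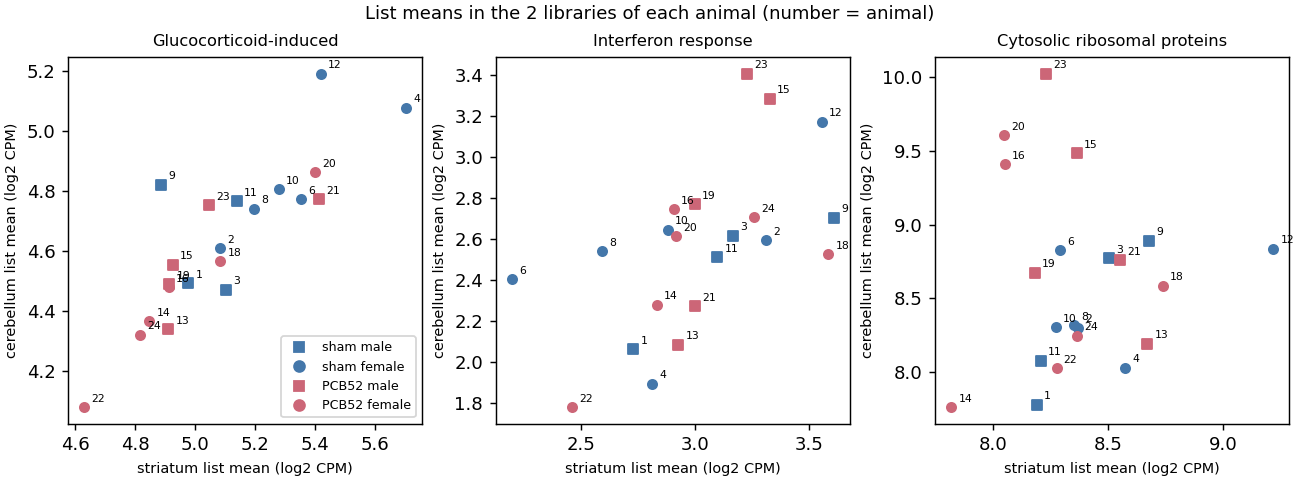
Mean log2 CPM of 3 gene lists in striatum (horizontal) and cerebellum (vertical), 1 point per animal, coloured by treatment and shaped by sex, with animal numbers. Glucocorticoid-induced genes (r = 0.78) and interferon response genes (r = 0.61) tracked between the regions, and ribosomal proteins (r = 0.05) did not. Each r is of list means centred on their treatment and sex group, while the points are not centred.

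Some single genes had like levels in both punches of an animal. They were among the 8 genes chosen for their high correlation between regions, so their levels are a description with no test. RT1-CE16 was detected in both libraries of sham animals 3, 8, 9, 10 and 11 and of PCB52 female 22, at 5.28 to 11.4 CPM, and was at 0 in both libraries of 14 animals, with sham female 6 as the only disagreement. The 5 sham animals that held it in both libraries were the 5 with transcripts of both sexes in 1 library. Ephx2, an epoxide hydrolase, was high in both libraries of sham females 2 and 10, PCB52 female 14 and PCB52 male 19 (10.7 to 22.1 CPM in striatum, where no other animal exceeded 3.02 CPM, and up to 41.8 CPM in cerebellum). In sham male 11 it was 1.12 CPM in striatum and 17.1 CPM in cerebellum.

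Ddx24, an RNA helicase, stood at 89.4 to 104 CPM in both libraries of PCB52 male 19 and PCB52 females 16 and 24. In PCB52 male 23 it was 137 CPM in striatum and 113 CPM in cerebellum, and no other library fell below 131 CPM. RT1-O1, another histocompatibility gene, was at 0 in both libraries of animals 10, 15 and 19. It had the highest correlation between regions after group centring (r = 0.88, rho = 0.81, 0.84 without the 2 farthest animals).

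**Figure D5:**
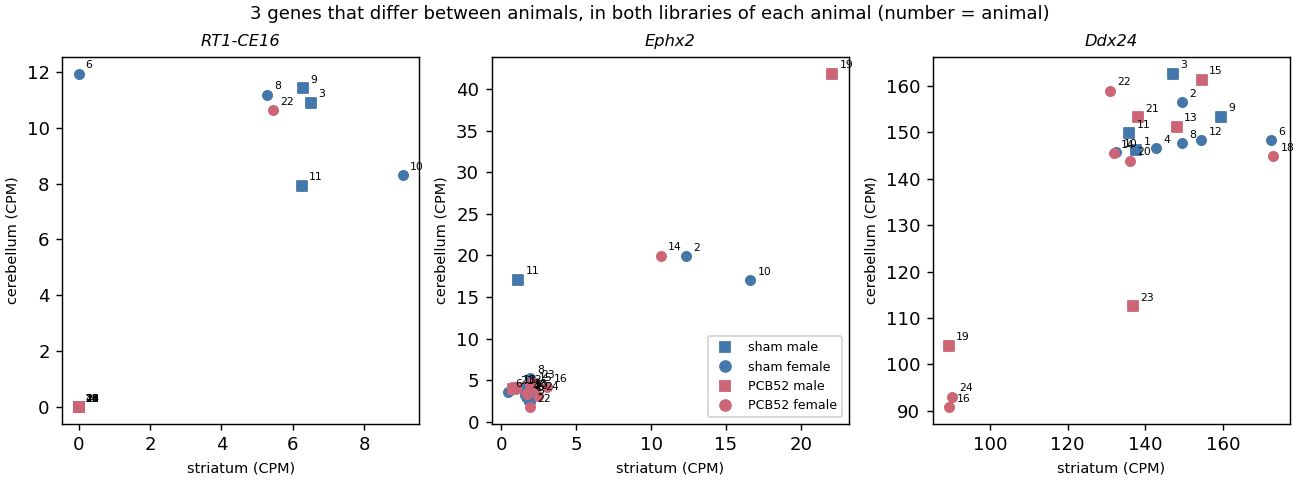
CPM of RT1-CE16, Ephx2 and Ddx24 in the striatal (horizontal) and cerebellar (vertical) library of each of the 21 animals, coloured by treatment and shaped by sex. Most animals have like levels in both punches, and sham female 6 (RT1-CE16), sham male 11 (Ephx2) and PCB52 male 23 (Ddx24) have not.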

How the data were processed

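Gene counts were measured by RNA sequencing of striatal and cerebellar punches of the same rats. The deposited tables, 1 per region, hold the authors' raw read counts per gene (15319 genes in each), not normalized. The submitters' processing notes name FastQC, HISAT2 and the rat build rn6. The counter, annotation and strand setting were not given in the sources used here. A RefSeq table of GRCr8, used for names only, gave symbols for 99.4% of the gene identifiers.

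Libraries were paired by the animal number that their titles share across regions, and sex and treatment came from the labels. No pair of libraries within a group looked like a repeat deposit (chi-square per degree of freedom of at least 4.01). Counts were fitted in edgeR 4.0.16 (R 4.3.3) and tested by quasi-likelihood, with TMM factors over 42 libraries, filterByExpr, 1 term per animal and 1 striatum term per treatment and sex (17 residual degrees of freedom, 12435 genes tested). Contrasts were both sexes with equal weight, males, females, and females minus males. Tests were two-sided, with Benjamini-Hochberg adjustment and a threshold of 0.05. CPM values are scaled by TMM-adjusted library size, and log2 CPM has a prior count of 2. limma 3.58.1 and DESeq2 1.42.0 were alternatives. In counts simulated for the comparison of both sexes (12362 genes), this test recovered 78 of 100 genes changed by 1 log2 unit. It recovered 98 of 100 changed by 2, and there were 7 false calls. These values hold for the simulated counts only. Recovery in the measured libraries, some with transcripts of both sexes, neighbouring tissue or high cerebellar ribosomal protein transcripts, was not tested.

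The named genes were the 12 of lowest p per direction (4 within a sex or between the sexes) with a mean of at least 1 CPM in a region, 2 per list, and 8 that tracked between regions. Some are left out of the text. Members and lists were chosen with earlier results of these data known. Whether punches with 1 number came from 1 animal was examined by the correlation of their deviations from the group means, which was 0.063 in the median gene and does not settle it.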

Additional observations from a re-analysis of the deposited data

Results flagged for a closer look

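Outlying animals were searched for in the region differences of the named genes and the gene lists, in 268 groups of 4 to 6 animals, and 19 values lay farther from the rest of their group than Dixon's test allows at its 95% level. Chance flags about 1 in 20 groups. No animal was removed for it.

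Among genes, the region difference (log2 striatum minus cerebellum) was 1.60 for P4ha2 in sham female 8 (next animal 1.18), 6.10 for Fosb in PCB52 male 23 (next 4.25) and 2.98 for Kirrel2 in PCB52 female 14 (next 2.37). Flt3 stood at -4.10 in PCB52 male 13 (next -3.28), and Gtpbp6 stood at 1.71 in the same animal (next 0.91). Luc7l was lowest in PCB52 male 15, at 0.14 (next 0.24). Casq1 was highest in PCB52 male 23, at -0.10 (next -1.27). Exo5 was highest in PCB52 female 22, at 0.39 (next -0.26).

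Among lists, several values belonged to punches that the report names. Choroid plexus genes stood at 6.73 in PCB52 female 20 (next 0.73), and olfactory bulb genes at 4.42 in sham female 12 (next 1.05), where endothelium and pericyte genes stood at 0.77 (next 1.08). In PCB52 female 22, whose striatal library held Gabra6, granule cell genes stood at -3.49 (next -5.79) and Purkinje cell genes at -2.06 (next -3.30). In sham male 3, whose striatal library held transcripts of both sexes, dopamine and DARPP-32 signalling genes stood at 4.21 (next 4.68) and striatal interneuron genes at 1.19 (next 2.00). Striatal interneuron genes stood at 2.78 in PCB52 male 23 (next 2.30). In sham male 1, oligodendrocyte precursor genes stood at 1.83 (next 1.33) and heat shock and protein folding genes at 0.13 (next -0.09). Heat shock and protein folding genes stood at 0.23 in sham female 4 (next 0.04).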

How the results depend on the processing

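The count of called genes was 0 in each comparison of both sexes, males, females and females minus males under every alternative run, leaving out each animal included. For both sexes the smallest adjusted p over the alternatives ranged from 0.0588 (DESeq2) to 1 (without the 4 animals with high cerebellar ribosomal protein transcripts). Without the animal as a block (no replicate block) edgeR called 0 genes and held 1880 at an unadjusted p of 0.05, against 1839 with it, so the pairing changed no call. The count at an unadjusted p of 0.05 was moved by more than 1.5 times by leaving out animals with transcripts of both sexes (750), with a neighbouring tissue (492), with high cerebellar ribosomal protein transcripts (302) or with libraries that disagree (1048), and ranged from 836 to 4148 when each animal was left out. The last 2 of these 4 alternatives were chosen after seeing the data, and the ribosomal rule used the cerebellar mean of that same list. These fits also hold fewer animals, 15 to 17. None of the genes recomputed, those of lowest p in a comparison and 12 of the list members, changed direction. Members named in the text by levels alone were not recomputed. Of the list medians, 8 moved and 1015 did not move by more than the spread between animals. That spread is the SD of the list's region difference within groups, 0.66 for ribosomal proteins. It is a wide limit: the ribosomal median counts as not moved although it went from -0.55 to -0.02 without the 4 animals. Medians that changed sign could also count as not moved. Without the animal as a block the median was 3.05 for choroid plexus and 0.92 for granule cell genes. Depth limits genes under about 1 CPM in a region, such as Htr6, Rgs14, Ccdc187 and Kirrel2 in cerebellum and Grin2b in PCB52 male cerebellum. Their fitted sizes rest on few counts, and limma gave 1.06 for Kirrel2 (both sexes) and 1.18 for Grin2b (males).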
